A study of Mus musculus with 8 samples.

Results

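The muscle described here received an intramuscular injection of phosphate-buffered saline (PBS) and no toxin, and its miRNAs were compared between day 4 (D4) and day 2 (D2) after surgery. The tissue was the whole gastrocnemius, the calf muscle, of female C57Bl/6 mice aged 6 to 8 weeks by the study's methods. Of the 8 RNA pools of the series, 4 belong to this comparison: PBS + SCI D4, PBS + SHAM D4, PBS + SCI D2 and PBS + SHAM D2. SCI is a transection of the thoracic spinal cord, which paralyses the hindlimbs, and SHAM is the control surgery. By the methods every mouse received 150 µL of PBS in the right gastrocnemius and 150 µL of 12 µM cardiotoxin (CDTX), a venom toxin that destroys muscle fibres, in the left. The PBS muscles therefore come from mice with a toxin-injured muscle in the other hindlimb, and none of the 4 pools is of an uninjected mouse. Each condition has 1 pool, which by the labels holds RNA of 3 muscles, so no value carries a spread between mice, and the SCI pair and the SHAM pair of pools are the only repeats of the comparison of days.

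Each of 755 RT-qPCR assays gave a quantification cycle (Cp) per pool, the PCR cycle at which the product appears. A cycle earlier means roughly 2 times the template, and a Cp of 36 marks an assay with no signal. An assay was kept where its Cp did not exceed 32 in any of the 4 PBS pools. This held for 148 assays of 137 miRNAs, out of 752 miRNA assays of 688 miRNAs, and 1 assay was used for each miRNA name. The 137 names stand for 134 distinct RNAs as far as RefSeq shows, since miR-28-3p and miR-28a-3p, miR-350 and miR-350-3p, and miR-7-1-3p and miR-7a-1-3p each match a single entry, and both names of such an RNA are counted. The last miRNAs inside this limit were miR-1839-5p, miR-501-5p and miR-7a-1-3p, with a highest Cp of 31.93, 31.97 and 32, and the first outside were miR-872-5p, miR-192-5p and miR-450a-5p, at 32.03, 32.04 and 32.05. Levels are given as log2 relative expression, which subtracts the Cp of a miRNA from the mean Cp of the 3 references that the methods name, miR-125b-5p, miR-23b-3p and miR-24-3p. The day difference is the level at D4 minus that at D2, so that a positive value is higher at D4.

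MiRNAs are short single-stranded RNAs, cut from hairpin precursors, that lower the output of messenger RNAs they pair with, chiefly through the seed near their 5′ end. Skeletal muscle is known for a small set of very abundant miRNAs, the myomiRs miR-1, miR-133a, miR-133b and miR-206, which act in the growth and differentiation of muscle cells. In whole muscle, miRNAs of blood vessels, blood cells and connective tissue are read together with those of the fibres, and fewer cells of a type cannot be told apart from less of a miRNA per cell.

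Of the 137 miRNAs, 112 matched a mature sequence of RefSeq on mouse build GRCm38.p6. The first set shows abundant miRNAs of PBS muscle, led by the myomiRs miR-133b and miR-206. In every sequence the capitals mark the seed, bases 2 to 8 from the 5′ end.
miR-133b: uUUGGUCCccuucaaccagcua
miR-206: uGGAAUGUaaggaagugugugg
miR-125b-5p: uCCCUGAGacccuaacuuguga
miR-126-3p: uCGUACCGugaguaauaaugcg
miR-16-5p: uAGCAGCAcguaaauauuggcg
miR-24-3p: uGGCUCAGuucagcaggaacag
miR-22-3p: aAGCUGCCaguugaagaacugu
The second set is the let-7 family, the largest group of kept miRNAs with a common seed, in order of level. Its 9 members all carry GAGGUAG and differ in the bases after it, and let-7d-5p differs at base 1 as well.
let-7d-5p: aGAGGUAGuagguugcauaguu
let-7c-5p: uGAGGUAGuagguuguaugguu
let-7a-5p: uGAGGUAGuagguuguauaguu
let-7f-5p: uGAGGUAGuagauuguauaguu
let-7i-5p: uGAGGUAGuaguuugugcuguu
let-7g-5p: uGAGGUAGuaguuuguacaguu
let-7e-5p: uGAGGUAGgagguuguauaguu
let-7b-5p: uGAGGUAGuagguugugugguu
miR-98-5p: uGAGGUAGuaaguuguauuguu
The third set holds miRNAs at the ends of the day difference, first those lower at D4 and then those higher, followed by miR-350-3p, which was read on both assay plates.
miR-338-3p: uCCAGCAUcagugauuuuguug
miR-144-3p: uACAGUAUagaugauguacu
miR-362-3p: aACACACCuguucaaggauuca
miR-379-5p: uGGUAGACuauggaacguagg
miR-7a-1-3p: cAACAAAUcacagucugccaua
let-7d-3p: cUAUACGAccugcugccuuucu
miR-1900: gGCCGCCCucucugguccuuca
miR-350-3p: uUCACAAAgcccauacacuuuc
MiR-206 (chr1:20679055-20679076) and miR-133b (chr1:20682834-20682855) lie on the plus strand of the same build inside the long non-coding RNA gene Lincmd1. MiR-338-3p (chr11:120014781-120014802, minus strand) lies within the span of Aatk, and miR-362-3p (chrX:7241984-7242005, minus strand) within that of the chloride channel gene Clcn5. MiR-379-5p (chr12:109709065-109709085, plus strand) belongs to the imprinted Dlk1-Dio3 locus. Of the 112 matched miRNAs, 107 had the same mature sequence as the target sequence that the study lists for the mouse miRNA.

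The panel gave similar numbers of miRNAs in the 4 pools. MiRNAs with a Cp of at most 32 numbered 146 in PBS + SCI D4 and 141 in PBS + SHAM D4, against 156 in PBS + SCI D2 and 157 in PBS + SHAM D2, and 53.2% to 57.7% of all assays had no signal. The mean Cp of the 3 references was 25.17 and 25.35 in the SCI and SHAM pools of D4, against 24.86 and 24.68 in those of D2, so both D4 pools crossed later than both D2 pools. The tissue label was checked against marker miRNAs. The striated muscle markers miR-133a-3p, miR-133b and miR-1-3p held the first 3 ranks, whereas none of 5 neuronal, 6 epithelial and 2 liver markers was kept, and miR-129-5p, miR-200a-3p, miR-200b-3p and miR-122-5p had no signal in any of the 4 pools. Nearest to the limit were miR-192-5p of the liver list, with a Cp of 31.52 and 32.04 in the SCI and SHAM pools of D4, against 31.43 and 30.87 in those of D2, and the neuronal miR-138-5p, at 32.70 and 32.67, against 31.63 and 32.14.

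The most abundant miRNAs of PBS muscle were the myomiRs miR-133a-3p, miR-133b and miR-1-3p. MiR-133a-3p had a Cp of 20.60 and 20.01 in the SCI and SHAM pools of D4, against 19.85 and 19.74 in those of D2. Its level was 4.97 ± 0.32 on the log2 scale (mean ± SD over the 4 pools), that is 31.3 times the mean of the references. MiR-133b stood at 4.73 ± 0.17 and miR-1-3p at 4.57 ± 0.31. These 3 miRNAs held ranks 1 to 3 in every pool, and miR-133a-3p was first in all 4. MiR-133b was above miR-1-3p in 3 pools and equal to it in the other, so the order of these neighbours is not settled by the 4 pools.

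After these came a step of 2.87 cycles on average, and of 2.69 to 3.06 cycles in the single pools, down to miR-378a-3p at 1.71 ± 0.18, a miRNA encoded in the metabolic coactivator gene Ppargc1b. MiR-378a-3p had rank 4 in every pool. The myomiR miR-206, which is known from regenerating and slow muscle, had rank 5 with a Cp of 24.26 and 24.86 in the SCI and SHAM pools of D4, against 24.24 and 23.98 in those of D2. Its rank ran between 5 and 9, since it was above miR-125b-5p in 3 of 4 pools only. Both days overlapped for miR-206, which at D4 was the highest in the SCI pool and the lowest in the SHAM pool.

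Below miR-206 the order was close. MiR-125b-5p (0.59 ± 0.06), the endothelial miR-126-3p (0.52 ± 0.15), miR-16-5p (0.46 ± 0.06), miR-24-3p (0.41 ± 0.05), miR-22-3p (0.35 ± 0.30), miR-23a-3p (0.22 ± 0.08) and miR-145-5p (0.07 ± 0.15), which is known from smooth muscle, followed each other at mean steps of 0.06 to 0.14 cycles. None of these neighbours was above the next in all 4 pools. MiR-30c-5p, miR-30b-5p, miR-143-3p, let-7d-5p, miR-21-5p, miR-23b-3p, let-7c-5p and miR-486-5p filled ranks 13 to 20, between -0.09 and -1.22. Of the steps among them, those below miR-30b-5p, miR-143-3p and let-7c-5p had the same sign in all 4 pools.

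**Figure D1:**
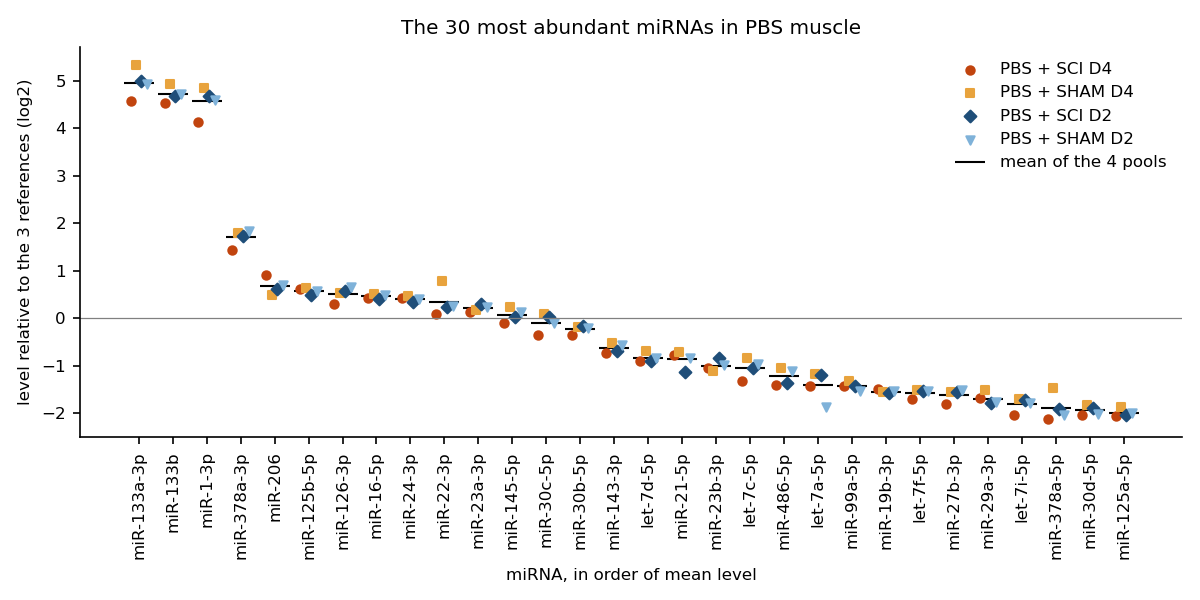
Level of the 30 most abundant miRNAs in PBS muscle relative to the 3 references (vertical axis, log2), in order of the mean over the 4 pools, with 1 point per pool and a bar at the mean. The first 3 miRNAs lie between 4.57 and 4.97, miR-378a-3p at 1.71, and the pools of most neighbours from rank 5 on overlap.

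The pools agreed closely in this order. The rank correlation of the 137 levels between any 2 of the 4 pools was 0.977 to 0.986 (Spearman, over miRNAs and not over replicates), and 19 or 20 of the first 20 miRNAs were among the first 20 of each pool. Levels spanned 11.8 cycles between miR-133a-3p and miR-1839-5p, while the median SD of a miRNA over the 4 pools was 0.19 cycles. Read as 2 to the power of minus the Cp and summed over the 137 miRNAs, the first 3 made up 70.6% and 76.4% of the signal in the SCI and SHAM pools of D4, against 74.5% and 73.8% in those of D2. At the other end, 47 miRNAs had a mean Cp of at least 30. The order does not depend on the reference, which shifts all levels of a pool alike, but it compares assays that may amplify unequally. For miR-1-3p, the second assay of the panel had a mean Cp of 30.67, against 20.45 for the assay used, which would place it far below rank 3. That second assay is named for the rat miRNA and the one used for the human miRNA. How well each matches the mouse sequence was not tested.

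Most hairpins gave 1 strand above the other in every pool. For 16 hairpins both arms were kept. The 3p arm was higher in all 4 pools for 10 of them, the 5p arm for 5, and miR-30e was mixed. As the level of the 5p arm minus that of the 3p arm, the widest mean gaps were -10.11 for miR-133a, -6.52 for miR-126 and -6.46 for miR-22, and the widest in favour of a 5p arm was 3.51, for miR-486. In 14 of the 16 the arms were read on different assay plates. Plate 2 crossed later than plate 1 by 1.63 to 2.15 cycles on average. How far plates and unequal assays enter the gaps between arms was not tested.

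Between D4 and D2 the miRNAs of PBS muscle differed little in the mean over both surgeries. This mean difference lay between -0.88 for miR-338-3p and 0.64 for miR-7a-1-3p, its median was 0.03, and 134 of 137 miRNAs stayed within 1.5-fold. In the SCI pair by itself, 1 miRNA was at least 1.5-fold higher at D4 and 6 were lower. In the SHAM pair by itself, 16 were higher and 3 lower. In limma, with surgery as a block, 0 miRNAs rose (0% of 137) and 0 fell (0%) at an adjusted p under 0.05. An unadjusted p under 0.05 was found for 6 of 137, fewer than the share of 0.05 that falls there with no day difference. Those 6 were miR-338-3p, miR-144-3p and miR-151-3p, lower at D4, and miR-7a-1-3p, miR-486-3p and let-7d-3p, higher at D4 and all read on assay plate 2. The smallest adjusted p was 0.099. With 2 pairs of pools an exact permutation test cannot go below p = 0.5, so the fit leans on the spread that limma shares over all miRNAs, which gave every miRNA the same standard error of 0.25.

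The SCI pair and the SHAM pair of pools did not order the miRNAs alike. The correlation of their day differences over the 137 miRNAs was 0.08 (Pearson) and 0.03 (Spearman), given as a description, since all miRNAs share the 4 pools. Both pairs had the same sign for 55 miRNAs, 33 of them higher at D4 and 22 lower. In the SCI pair the median difference was -0.13 and in the SHAM pair 0.16. With the mean Cp of the 137 miRNAs as reference in place of the 3 references, all SCI differences shift by 0.10 and all SHAM differences by -0.18, and the split became 30 higher and 40 lower. No miRNA passed the adjusted threshold then either (10 at an unadjusted p under 0.05).

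**Figure D2:**
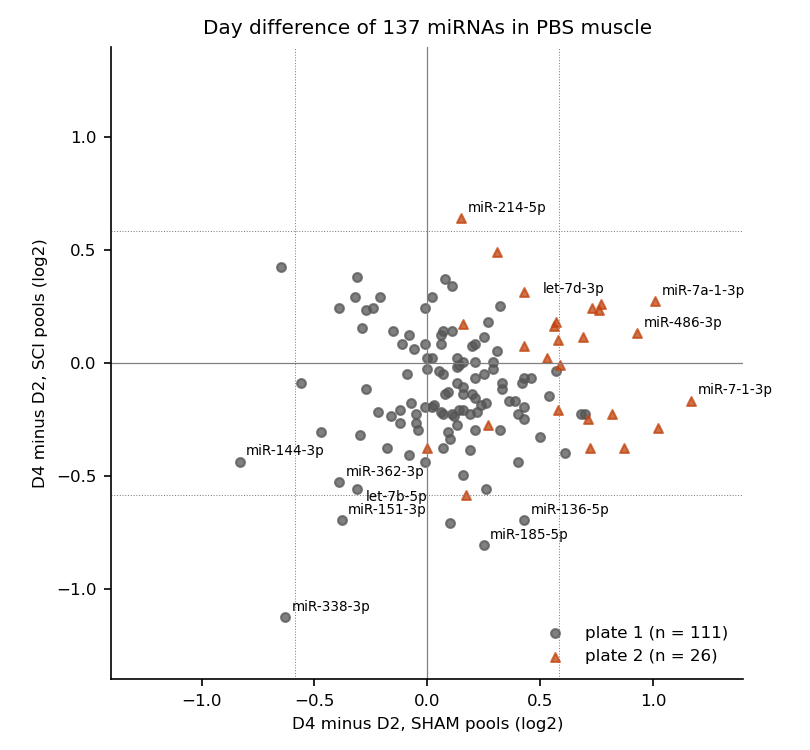
Day difference (D4 minus D2, log2) of 137 miRNAs in the SCI pair of pools (vertical axis) and in the SHAM pair (horizontal axis), with dotted lines at 1.5-fold. MiR-338-3p alone lies past 1.5-fold in the same direction in both pairs, and the 26 miRNAs of plate 2 (triangles) lie to the right of most of the 111 of plate 1 (circles).

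A single miRNA, miR-338-3p, was at least 1.5-fold lower at D4 in both pairs (0.73% of 137), and none was at least 1.5-fold higher in both (0%). MiR-338-3p, which is known from nervous tissue and as a regulator of cell growth, had a Cp of 31.16 and 31.53 in the SCI and SHAM pools of D4, against 29.72 and 30.23 in those of D2. Both D4 pools were thus lower in level than both D2 pools. The difference was -1.13 in the SCI pair and -0.63 in the SHAM pair, on average 0.544 times the D2 level, with an adjusted p of 0.099 in limma. Over the references and filters tried, that p ranged between 0.0136 and 0.991. Without the PBS + SHAM D2 pool the difference was -1.22, and without the PBS + SCI D2 pool it was -0.54. Those 2 fits had no surgery term and 1 pool at D2, so they mix day with surgery. A second assay of the same miRNA, with Cp values of 31.90 and 31.99 in the D4 pools, against 30.37 and 30.77 in the D2 pools, gave -1.22 and -0.55. In CDTX muscle its Cp was 31.48 and 31.84 in the SCI and SHAM pools of D4, against 30.81 and 29.86 in those of D2, a difference of -0.97 and -1.91. All 4 pairs of pools of the series thus had less miR-338-3p at D4.

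The other miRNAs at the low end moved less. MiR-144-3p, made from the same transcript as the erythroid miR-451a, had a Cp of 31.76 and 31.32 in the SCI and SHAM pools of D4, against 31.01 and 29.82 in those of D2, a mean difference of -0.63 with an adjusted p of 0.632 in limma. The PBS + SHAM D2 pool stood above the other 3, and without it the difference was -0.13, in a fit with no surgery term. MiR-151-3p had a Cp of 31.40 and 31.42 in the SCI and SHAM pools of D4, against 30.39 and 30.37 in those of D2, and miR-362-3p 31.72 and 31.74, against 30.88 and 30.68. In both, the levels of the D4 pools lay below those of the D2 pools, with mean differences of -0.54 and -0.46. Let-7b-5p (-0.43), miR-379-5p (-0.39), let-7e-5p (-0.32) and miR-376c-3p (-0.31) were lower in both pairs, and the others of the 12 lowest lay between -0.28 and -0.22. None of these had an adjusted p under 0.05.

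At the high end, miR-7a-1-3p, the passenger arm of a miR-7 hairpin, had a Cp of 31.63 and 31.66 in the SCI and SHAM pools of D4, against 31.59 and 32 in those of D2. As the references crossed later at D4, its level was higher there by 0.27 in the SCI pair and 1.01 in the SHAM pair. MiR-486-3p, the minor arm of a hairpin in the ankyrin gene Ank1 that is known from muscle and red cells, differed by 0.13 and 0.93, and let-7d-3p by 0.26 and 0.77. MiR-1900 (0.50), miR-350 (0.49), miR-709 (0.40), miR-29a-5p (0.40), miR-214-5p (0.40), miR-299-5p (0.38), miR-92a-3p (0.37), miR-140-3p (0.36) and miR-1839-5p (0.34) followed. In 10 of these 12 the SHAM pair had the larger difference, the exceptions being miR-709 and miR-214-5p.

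**Figure D3:**
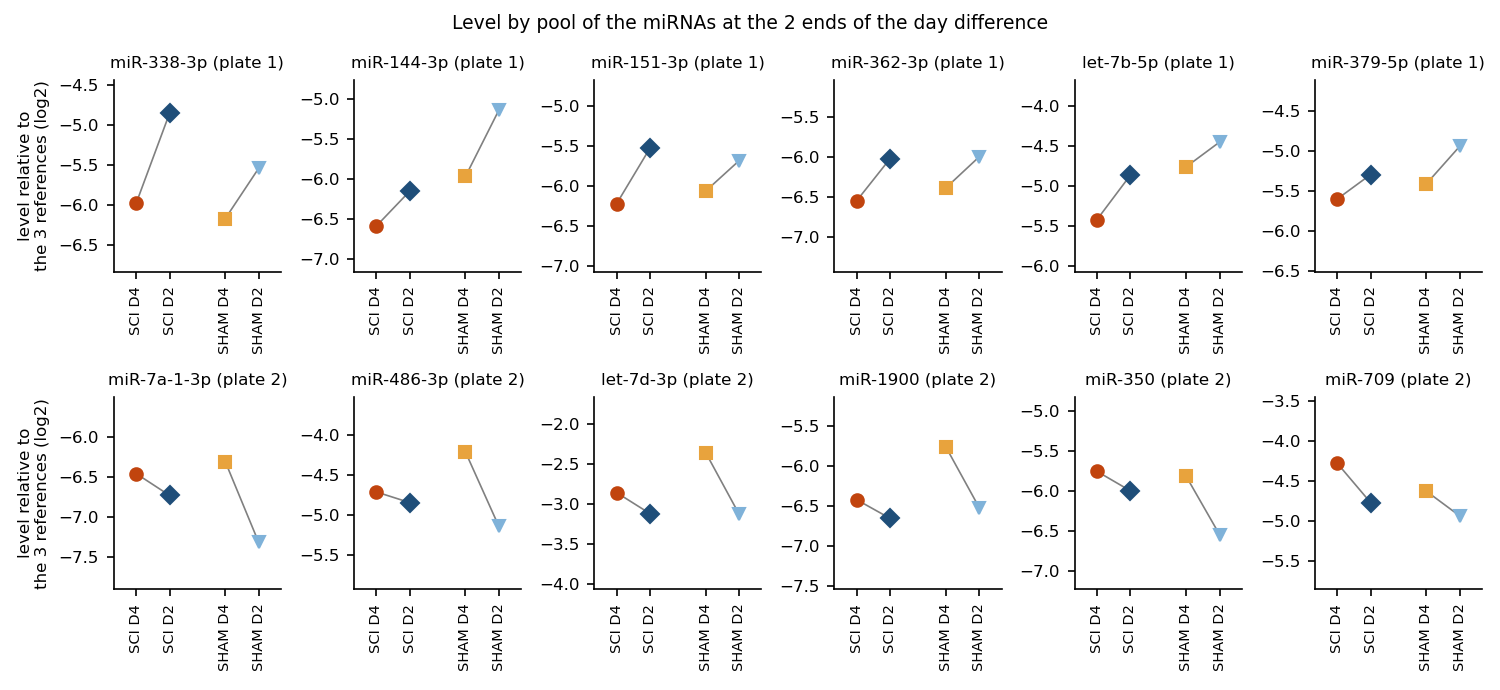
Level relative to the 3 references (log2) in each PBS pool for 6 miRNAs of the low end (upper row, plate 1) and 6 of the high end (lower row, plate 2) of the day difference, with a line joining D4 and D2 of the same surgery. Each vertical axis spans 2.4 cycles. MiR-338-3p differed by -1.13 and -0.63, and the lower row is steeper in the SHAM pair except for miR-709.

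These ends fell on different assay plates. The row keys of the deposited tables start with 1 or 2, read here as the 2 plates of the panel. All 12 miRNAs of the high end were on plate 2, which held 26 of the 137, and none of the 12 of the low end was. All 3 references were on plate 1. The median day difference was 0.35 on plate 2 and 0.00 on plate 1. In the SHAM pair it was 0.59 on plate 2 and 0.10 on plate 1, and in the SCI pair 0.09 and -0.14. Of the 26 miRNAs of plate 2, 25 were above 0 in the SHAM pair and 15 in the SCI pair, beside 73 and 33 of the 111 of plate 1. The mean Cp of plate 2 exceeded that of plate 1 by 1.76 and 1.63 cycles in the SCI and SHAM pools of D4, against 1.90 and 2.15 cycles in those of D2. What sets this gap, the plate, the miRNAs it carries or both, was not tested. Centred on the mean of the same plate, the 12 miRNAs of the high end differed by 0.04 to 0.34 and those of the low end by -0.85 to -0.19. MiR-338-3p then stood at -0.85, miR-144-3p at -0.61 and miR-151-3p at -0.51, next to miR-126-5p (-0.51) and miR-455-3p (-0.49) of plate 2, while miR-149-5p (0.31) and miR-196b-5p (0.29) of plate 1 were close to miR-7a-1-3p (0.34) at the high end. With this centring no miRNA passed the adjusted threshold in limma (7 at an unadjusted p under 0.05), and miR-338-3p had an adjusted p of 0.669. On plate 1 alone, miR-338-3p passed the threshold in limma with an adjusted p of 0.0136, and no other miRNA did. Both of these ways were added after the plates were seen to differ.

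**Figure D4:**
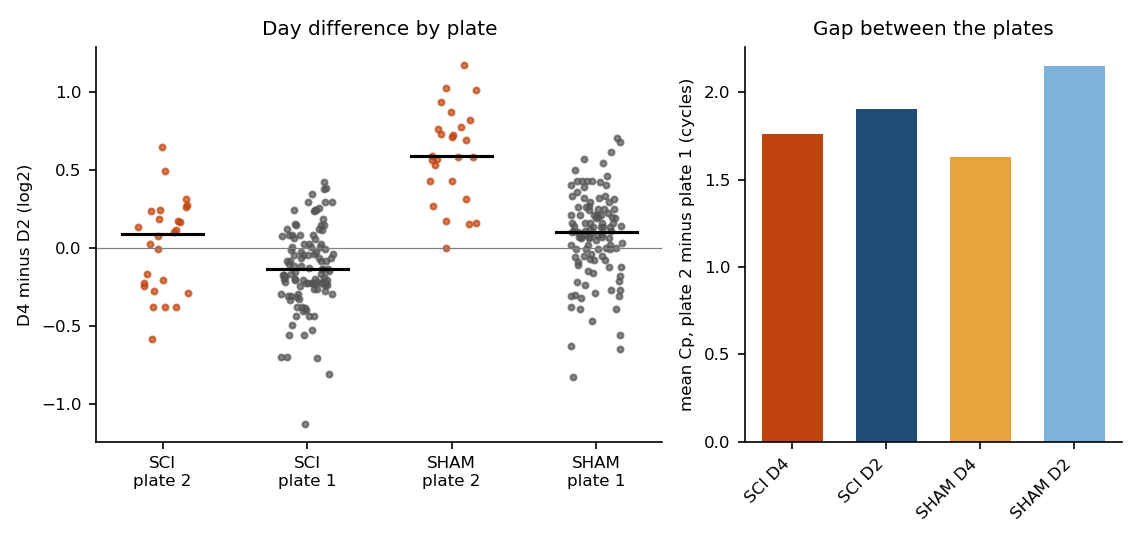
Left, day difference (D4 minus D2, log2) of each miRNA in the SCI and SHAM pairs by plate, with the median as a bar. Right, mean Cp of the kept miRNAs of plate 2 minus that of plate 1 in each PBS pool (cycles). The SHAM pair of plate 2 has a median of 0.59, and the gap between the plates is widest in PBS + SHAM D2, at 2.15 cycles.

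MiRNAs with 2 assays allowed the plates to be compared on the same RNA. For 12 mature sequences a second assay was kept, counting the 3 RNAs that are listed under a pair of names. The miR-350-3p sequence had a day difference of 0.49 on plate 2 and -0.30 on plate 1, and miR-532-5p of 0.43 on plate 2 and 0.13 on plate 1. Of the other 10, with both assays on 1 plate, miR-133a-5p had the widest gap in mean day difference, at 0.54, and its assays gave 0.72 and 1.79 in the SHAM pair. Over the 9 miRNAs with 2 assays of the same name, the root mean square gap between assays was 0.32 for a single pair of pools, and the mean differences had the same sign for 5 of 9. Among the 14 hairpins with 1 arm on each plate, the arm on plate 2 had the higher day difference in 13, by a median of 0.17.

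No muscle miRNA passed the test between the days. Of 11 striated muscle miRNAs on the panel, 8 were kept, 0 passed the adjusted threshold or the 1.5-fold size in both pairs, and their median difference was 0.02, beside 0.03 over all 137. MiR-133a-3p differed by -0.44 in the SCI pair and 0.40 in the SHAM pair, miR-1-3p by -0.56 and 0.26, and miR-133b by -0.16 and 0.21. All 3 thus had opposite signs in the surgeries, and the sum of the 8 levels was 69.7 and 106 times the references in the SCI and SHAM pools of D4, against 89.4 and 87.6 in those of D2. The heart and slow fibre miRNAs encoded in myosin genes were near the end of the range. MiR-208a-3p had no signal in any PBS pool, and miR-499a-5p had none in the D4 pools and a Cp of 35.15 and 35.85 in the SCI and SHAM pools of D2. MiR-208b-3p had no signal in PBS + SCI D4 and a Cp of 34.73 in PBS + SHAM D4, against 34.06 and 33.73 in the SCI and SHAM pools of D2.

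Of the markers of other cell types of muscle, 0 passed the adjusted threshold. The endothelial miR-126-3p had rank 7, whereas the other arm of its hairpin, miR-126-5p, had rank 118. The miRNAs of smooth muscle and fibroblasts ranked between 12 (miR-145-5p) and 134 (miR-214-5p). Of 8 leukocyte miRNAs, 4 were kept, with a median difference of -0.09, and their summed level was 0.41 and 0.42 at D4 against 0.41 and 0.44 at D2 (SCI and SHAM pools, in units of the references). Outside the limit, miR-155-5p, which is induced in activated immune cells, had a Cp of 35.23 and 35.74 in the D4 pools, against 34.11 and 34.12 in the D2 pools. These values are close to the 36 of no signal, and the references also crossed later at D4. MiR-142-3p, miR-146a-5p and miR-146b-5p, also outside the limit, differed by -0.01, -0.10 and -0.15 relative to the references. Of the 3 erythroid miRNAs miR-486-5p differed by 0.01 and miR-144-3p by -0.63, while miR-451a was outside the limit at a Cp of 35.44 and 35.09 at D4, against 35.12 and 33.12 at D2 (SCI and SHAM pools). MiR-144-3p, miR-451a and miR-486-5p had their lowest Cp in the PBS + SHAM D2 pool. The mean Cp of the references (24.68) and that of the kept miRNAs (28.32) were lowest in this pool too. The endothelial arms miR-126-3p and miR-126-5p differed by -0.19 and -0.21. The 6 miRNAs of smooth muscle and fibroblasts had a median of 0.06, with miR-143-3p at 0.01 and miR-145-5p at -0.02.

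The let-7 family spread widely in level and little between days. Its 9 members ranked between 16 (let-7d-5p) and 123 (miR-98-5p), a span of 5.32 cycles among RNAs whose seeds are identical. Let-7e-5p differs from let-7a-5p at 1 base, U9G, and let-7c-5p at A19G, counted from the 5′ end. They differed by -0.32 and -0.07 between days, beside 0.24 for let-7a-5p, so assays for close sequences were not equal in their day difference, and how far such assays read each other's target was not tested. The median of the family was -0.08, with 1 member higher and 3 lower in both pairs. Let-7a-5p itself differed by -0.23 in the SCI pair and 0.70 in the SHAM pair, with a Cp of 26.05 in PBS + SCI D2 and 26.55 in PBS + SHAM D2, whereas let-7d-5p, let-7c-5p, let-7f-5p and let-7i-5p, its nearest kin by rank, crossed earlier in the SHAM pool of D2 than in the SCI pool.

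Other families were near the median of all miRNAs. The 5 members of the miR-30 family, which is abundant in muscle, had a median of 0.03 and opposite signs in the surgeries throughout, the 2 kept members of the miR-29 family, known to lower collagen output, were at 0.18 (miR-29a-3p) and 0.20 (miR-29c-3p), and the 2 of the miR-26 family at 0.09 (miR-26a-5p) and 0.01 (miR-26b-5p). The miR-15/16 family had a median of -0.08 over 5 kept members, the miR-23/27/24 clusters -0.12 over 5 and the miR-99/100 and miR-125 families 0.09 over 5. The last lay between 0.03 and 0.18. The references belong to these groups, and their mean difference is 0 by construction, with miR-125b-5p at 0.09, miR-24-3p at 0.07 and miR-23b-3p at -0.16. For the miR-17-92 cluster and its paralogs, which drive cell growth, 8 of 12 were kept, with a median of 0.04 and miR-92a-3p, the single member on plate 2, highest at 0.37.

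MiRNAs of a common locus were spread around 0. From the Dlk1-Dio3 locus, a large imprinted cluster active in embryonic and regenerating muscle, 41 of the listed miRNAs were on the panel, 10 were kept and their median was -0.06, between -0.39 (miR-379-5p) and 0.17 (miR-411-5p). The kept miR-299-5p (0.38, plate 2), which lies beside these, and miR-136-3p (-0.0033, plate 2) are of the same locus but were not on the list. Of 8 miRNAs of the Clcn5 cluster 4 were kept, with miR-362-3p at -0.46 and miR-501-5p, on plate 2, at 0.37. The miR-99b, let-7e and miR-125a hairpins within the span of Spaca6 gave 0.18, -0.32 and 0.06. Of 11 stress and activity miRNAs 3 were kept, namely miR-21-5p (0.23), miR-34a-5p (-0.17) and miR-181a-5p (0.00). A list of 15 miRNAs that were also assayed in single muscles had 13 kept and a median of 0.01. As it was drawn with these pools in view, it is no independent evidence.

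Of the 688 miRNAs of the panel, 5 lay on different sides of the Cp limit at the 2 days, and 20 others were within it in some pools without splitting by day. MiR-15b-5p, miR-148a-3p, miR-210-3p, miR-221-3p and miR-450a-5p had a Cp within 32 in both D2 pools and above it in both D4 pools, and no miRNA crossed the other way. The oxygen-responsive miR-210-3p had a Cp of 33.09 and 32.02 in the SCI and SHAM pools of D4, against 31.54 and 31.39 in those of D2. Relative to the references it differed by -1.24 in the SCI pair and 0.04 in the SHAM pair. The other 4 differed by -0.22 to -0.06 on average. MiR-15b-5p was at -0.59 in the SCI pair and 0.15 in the SHAM pair. The references also crossed later at D4, and so did the kept miRNAs on average. Their mean Cp was 28.88 and 28.82 in the SCI and SHAM pools of D4, against 28.46 and 28.32 in those of D2. The limit is on the Cp itself, so such a shift of all assays enters these counts.

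The day difference of PBS muscle was next compared with that of CDTX muscle, over 116 miRNAs whose Cp stayed within 32 in each of the 8 pools. Its SD over miRNAs was 0.21 in PBS muscle and 0.70 in CDTX muscle, and a mean difference of at least 2-fold was found for 0 miRNAs in PBS muscle and 18 in CDTX muscle. In limma, the PBS minus CDTX difference passed an adjusted p under 0.05 for 8 miRNAs, 1 higher in PBS muscle (0.862% of 116) and 7 lower (6.03%). MiR-206 stood furthest apart, with 0.04 in PBS muscle and 2.63 in CDTX muscle, a PBS minus CDTX difference of -2.59 ± 0.33 (SE, adjusted p = 0.00233). Its Cp in CDTX muscle was 23.37 and 23.59 in the SCI and SHAM pools of D4, against 26.47 and 25.98 in those of D2. MiR-34a-5p, a target of p53, had -0.17 in PBS muscle and 1.75 in CDTX muscle, and miR-199a-5p, known from fibroblasts, had 0.18 and 0.27 in the SCI and SHAM pairs of PBS muscle and 1.24 and 1.76 in those of CDTX muscle. The reverse held for miR-150-5p, a miRNA of mature lymphocytes, with 0.03 in PBS muscle and -1.42 in CDTX muscle. MiR-362-3p, miR-379-5p, miR-532-5p and miR-455-3p completed the set, all lower in PBS muscle, at -1.61 to -1.33.

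These calls depended on the reference. The same 8 miRNAs passed among 14 with the global mean as reference, but 0 passed with miR-24-3p or miR-23b-3p alone (limma, 24 and 28 at an unadjusted p under 0.05), and miR-206 was the only miRNA with miR-125b-5p alone and with the deposited normalized values. MiR-338-3p did not pass, at -0.88 in PBS muscle and -1.44 in CDTX muscle (adjusted p = 0.37). Whether PBS and CDTX pools share mice is not given by the labels, and no pairing of them was used.

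**Figure D5:**
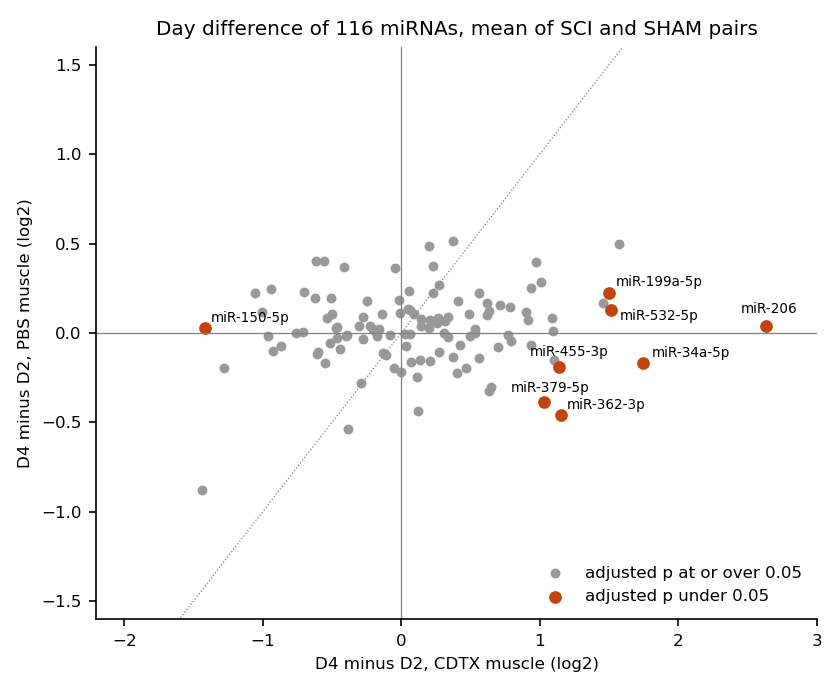
Day difference (D4 minus D2, log2, mean of the SCI and SHAM pairs) of 116 miRNAs in PBS muscle (vertical axis) and in CDTX muscle (horizontal axis), with a dotted line of equality. The 8 miRNAs past an adjusted p under 0.05 for the PBS minus CDTX difference are coloured, and miR-206 lies furthest from the line, at 0.04 in PBS muscle and 2.63 in CDTX muscle.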

How the data were processed

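The authors extracted total RNA from flash frozen gastrocnemius muscle, reverse transcribed it and ran SYBR Green qPCR with LNA primers on a mouse and rat miRNA panel. The authors took the Cp from the second derivative of the curve and deposited it without normalization, as a log2 scale that runs downward. A deposited ratio table gives expression relative to reference miRNAs. Below a Cp of 33 its log2 value was the mean Cp of 4 references (miR-125b-5p, miR-24-3p, miR-23a-3p and miR-16-5p) minus the Cp, within 0.00684 cycles, whereas the methods name 3. The authors' fold table, which sets each pool against PBS + SHAM D2, was not used. No sequencing depth applies, and the tables hold no repeat wells.

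Log2 relative expression was recomputed with the 3 references of the methods. Of several assays of a miRNA, a mouse assay was preferred, and then the lower mean Cp. D4 was set against D2 in limma 3.58.1 (R 4.3.3; lmFit, eBayes, Benjamini-Hochberg over 137 miRNAs, 2-sided) with surgery as a block, which leaves 1 residual degree of freedom. The PBS minus CDTX difference was fitted on all 8 pools over 116 miRNAs. With 1 pool per condition, the p-values of both fits hold no spread between mice. They rest on how far the day difference varied between the SCI and SHAM pairs. A day difference that depends on surgery counts there as noise. Other steps used Python 3.11.15, pandas 2.3.3, numpy 2.4.6 and matplotlib 3.10.9. The day fit was tried on simulated data with independent noise and planted differences of 1 to 3 on the log2 scale. These exceed every mean day difference of the 137 miRNAs, and smaller planted differences were not tested. The miRNAs named are the 20 most abundant, the 12 highest and 12 lowest day differences of equal sign in both surgeries, up to 4 members of each list, the references, those crossing the Cp limit and those past an adjusted p under 0.05. List members and edge cases outside the Cp limit, second assays, let-7f-5p, let-7i-5p, miR-98-5p, miR-136-3p, miR-149-5p, miR-196b-5p, miR-337-5p, miR-350-3p and miR-1949 were named after their values were seen. Members and lists were chosen with earlier results of these data known. Alternatives were other references, Cp limits, assays and models, and leaving out each PBS pool, which also dropped the surgery term.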

Additional observations from a re-analysis of the deposited data

Results flagged for a closer look

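The day difference of 8 miRNAs differed between PBS and CDTX muscle in limma's test of the difference itself (116 miRNAs). As D4 minus D2, PBS minus CDTX, on the log2 scale, the values were -2.59 for miR-206, -1.92 for miR-34a-5p, -1.61 for miR-362-3p, -1.42 for miR-379-5p, -1.39 for miR-532-5p, -1.33 for miR-455-3p, -1.27 for miR-199a-5p and 1.45 for miR-150-5p, each of the same sign in the SCI and the SHAM pools. MiR-362-3p and miR-379-5p were lower at D4 in PBS muscle and higher at D4 in CDTX muscle in both surgeries, at -0.46 in PBS against 1.15 in CDTX muscle and at -0.39 against 1.03. Groups of 1 pool allow no search for a pool that stands apart within its group.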

How the results depend on the processing

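No miRNA was higher at an adjusted p under 0.05 in any day fit that kept all 4 PBS pools (limma, 2 to 13 at an unadjusted p under 0.05). Lower miRNAs numbered 1 on plate 1 only, namely miR-338-3p, and 0 in the other fits that kept all 4 PBS pools. Leaving out a PBS pool left 1 pool for a day and no surgery term, so no count is given there. MiRNAs at least 1.5-fold lower in both pairs numbered 0 with miR-23b-3p alone, 0 with a Cp of at most 30, which drops miR-338-3p, 0 at 2-fold and 2 with a Cp of at most 34, which adds miR-337-5p (-0.78). That limit also gave 1 at least 1.5-fold higher, miR-1949 (0.80). The PBS minus CDTX count of 8 became 14 with the global mean, 15 with the mean of each plate, 0 with miR-24-3p alone, 0 with miR-23b-3p alone, 1 with miR-125b-5p alone, 1 with the deposited values, 2 with a Cp of at most 30 and 1 with a Cp of at most 34. Of the first 20 miRNAs by level, 19 to 20 stayed without any 1 pool and 19 with second assays. Of 78 named miRNAs, 71 kept their direction with the global mean, 62 with miR-23b-3p alone and 58 without PBS + SHAM D4. Second assays kept the direction of 3 of 7. The cause of these shifts was not tested.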

Other observations

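The panel also read 3 small nuclear RNAs, which belong to the splicing machinery and are no miRNAs. RNU5G had a Cp of 26.66 and 27.08 in the SCI and SHAM pools of D4, against 26.03 and 25.76 in those of D2, a difference of -0.32 and -0.65 relative to the references. RNU1A1 had a Cp of 26.88 and 27.09 in the SCI and SHAM pools of D4, against 26.90 and 26.79 in those of D2, a difference of 0.33 and 0.37. These 2 RNAs of plate 1 thus moved in opposite directions in both surgeries. U6 snRNA crossed late, at 31.60 and 32.27 in the D4 pools, against 31.62 and 31.41 in the D2 pools, and differed by 0.33 and -0.19.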
